A study of Homo sapiens with 4 samples.

Results

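18S rRNA, the RNA of the small ribosomal subunit, made up 1869 of the 13780 nucleotides of the 47S pre-rRNA for which coverage was deposited. Its positions were taken as the nucleotides that the files assign to 18S, positions 3657 to 5525 of the 47S pre-rRNA, and the choice used no measured value. Flp-In T-REx HEK293 cells are a human embryonic kidney line that carries a construct at a fixed genomic site under tetracycline control. They expressed Flag-His-NKRF or, as the background control, only the Flag-His tag, and all cells were induced for 24 h. RNA crosslinked to the tagged protein was recovered in a native and then a denaturing purification, trimmed and sequenced, which is the CRAC method (crosslinking and analysis of cDNA). Crosslinking was at 254 nm (UV), or at 365 nm after 6 h with 100 µM 4-thiouridine, a uridine analogue that enters new RNA (PAR). The 4 libraries were 1 to a group, so every difference below compares single libraries and carries no test. The tagged NKRF was expressed from the introduced construct. What the endogenous NKRF contributed cannot be read from these files.

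The pre-rRNA is transcribed from ribosomal DNA repeats on the short arms of the acrocentric chromosomes and is cut into 18S, 5.8S and 28S rRNA, while the external and internal transcribed spacers (ETS and ITS) are removed. Within the small subunit, 18S folds into a 5′ domain, a central domain, a 3′ major domain and a 3′ minor domain, and eukaryotic expansion segments add GC-rich stems to this core. NKRF is a G-patch protein, of a class known to bind and activate RNA helicases, and the title of the series links it to the exonuclease XRN2 and the helicase DHX15 in ribosome biogenesis. Coverage is given in normalised hits, which are hits per 1000000 reads of a library. The value of 1 read was 1.19 normalised hits with UV for the tag alone and 0.920 for NKRF, and with PAR 8.92 for the tag alone and 4.43 for NKRF. At least 66763, 102704, 643 and 968 reads lay behind the 18S profiles in that order. Intervals below are 95% intervals for counting error only, since reads amplified with no molecular identifier need not be separate molecules.

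The sequences on which the results turn are shown 5′ to 3′ in the DNA letters of the deposited files, with positions counted from 1 at the start of 18S. The genome build behind these letters is not given in the sources used here. The first pair crosses the mature ends, with 18S in capitals. The next pair holds coverage blocks that end at the largest fall, after 43 in both PAR libraries and after 865 in both UV libraries. Capitals in this pair mark its highest positions in the NKRF UV library. The 3 stretches after this pair were chosen for a larger share of 18S coverage with NKRF than with the tag alone in both modes. Capitals in them mark a T substituted in at least 50% of the NKRF PAR coverage. The last 4 hold positions that were often misread in both UV libraries, in capitals.
5′ end, 20 nt before and after: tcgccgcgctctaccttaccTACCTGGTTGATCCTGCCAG
3′ end, 20 nt before and after: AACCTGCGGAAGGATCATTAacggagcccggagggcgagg
1 to 43: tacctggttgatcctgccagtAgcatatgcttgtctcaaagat
825 to 865: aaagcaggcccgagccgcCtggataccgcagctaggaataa
226 to 275: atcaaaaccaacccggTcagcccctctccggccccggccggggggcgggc
701 to 800: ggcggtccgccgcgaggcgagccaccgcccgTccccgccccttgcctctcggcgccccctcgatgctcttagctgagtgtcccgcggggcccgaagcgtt
1751 to 1775: cccgccggggtcggcccacggccct
584 to 604: acgaggatccAttggagggca
633 to 653: cagctccaatAgcgtatatta
1238 to 1258: ttaatttgacTcaacacggga
1661 to 1681: ataagcttgcGttgattaagt

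Every 18S nucleotide was covered in both UV libraries, whereas 108 had no coverage in the tag-only PAR library and 18 in the NKRF PAR library. Mean coverage per nucleotide was 2161 normalised hits in the tag-only UV library and 2664 in the NKRF UV library. After PAR crosslinking it was 123 with the tag alone and 90.1 with NKRF. The 18S coverage was uneven, and 278, 291, 160 and 399 of the 1869 positions held 50% of it, in the same order of libraries. The highest position stood 12.9, 13.2, 26.7 and 5.91 times above the median. The NKRF PAR profile was thus the most evenly spread of the 4.

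The amount of 18S relative to the tag alone depended on the scale, and both scales are given for that reason. As a share of the 47S coverage, 18S was 1.95-fold lower with NKRF after UV crosslinking (1.93 to 1.97) and 16.3-fold lower after PAR crosslinking (14.7 to 18). On the scale of normalised hits, the same 18S coverage was 1.23-fold higher with NKRF after UV crosslinking (1.22 to 1.24) and 1.37-fold lower after PAR crosslinking (1.24 to 1.51). The total recovery of rRNA differed alongside, at 13.2% and 35.7% of all class hits in the tag-only and NKRF UV libraries and 1.84% and 14.2% in the PAR libraries. Its part in these ratios was not tested. Where reads fell within 18S was compared on shares of the 18S coverage.

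**Figure D1:**
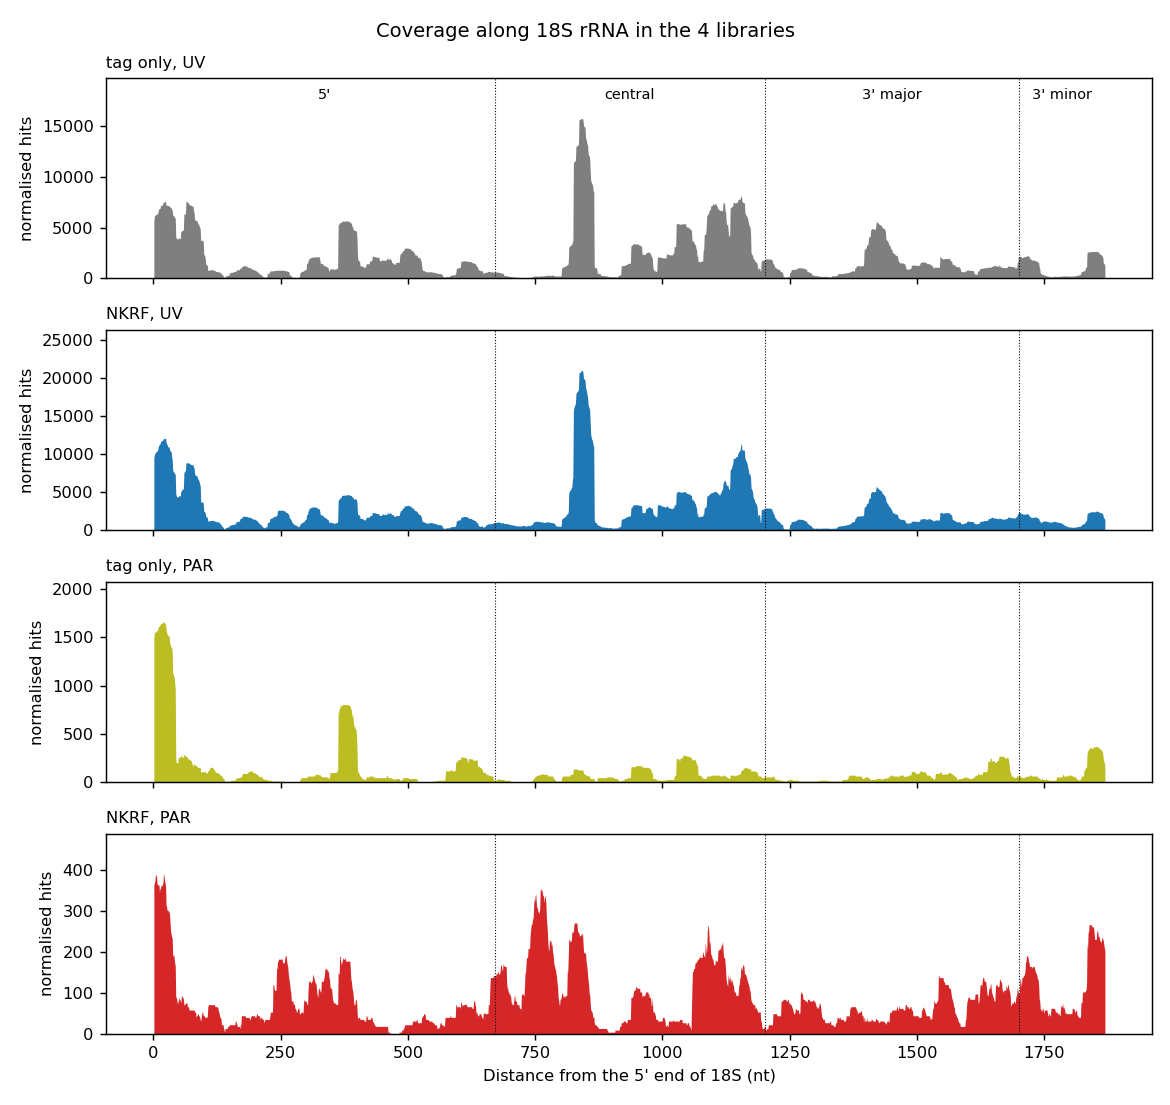
Coverage in normalised hits (y axis, linear, with its own range in each panel) along 18S by distance from its 5′ end in nucleotides (x axis) for the 4 libraries, with dotted lines at the approximate domain borders. The UV profiles share their tallest block between 825 and 865, the tag-only PAR profile is led by its first 43 nt, and the NKRF PAR profile has a block of 354 normalised hits at 762, where the tag-only PAR profile has 80.

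The UV libraries shared 3 of their leading peaks with and without NKRF. The tallest block lay at 825 to 865 in both, in the central domain, with a maximum of 15755 normalised hits with the tag alone at position 841 and 21059 with NKRF at position 843. This block of 41 nt held 13% of the 18S coverage with the tag alone and 14.3% with NKRF. At position 841 the tag-only PAR library had 125 normalised hits and the NKRF PAR library 239. The other leading UV peaks stood at 1155 (8138 normalised hits with the tag alone and 11383 with NKRF) and at 1420 (5679 and 5847). Near the 5′ end the tag-only UV library peaked at 64, at 7661 normalised hits, and the NKRF UV library at 22, at 12098. Coverage was high at both positions in both libraries, at 7591 with the tag alone at 22 and 8958 with NKRF at 64. The peak rule keeps only the higher of 2 positions within 50 nt. The fifth peak was at 380 with the tag alone (5668, against 4671 with NKRF). With NKRF it was at 1031 (5151, against 5421 with the tag alone).

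The PAR libraries shared the 5′ end and the 3′ end of 18S but differed between them. With the tag alone, positions 1 to 43 held 27.9% of the 18S coverage, with a maximum of 1658 normalised hits at position 19, and positions 363 to 399 held 11.8%. The next tag-only peaks were at 1853 (374 normalised hits), 1040 (276) and 1661 (267). With NKRF the maximum was 390 normalised hits at position 6, and the stretch around it, 1 to 37, held 7.40%. The next NKRF PAR peak, at 762, reached 354 normalised hits, and the stretch around it, 733 to 786, held 8.75% of the 18S coverage. At the same position 762 the tag-only PAR, tag-only UV and NKRF UV libraries had 80, 248 and 1096 normalised hits. This position ranked above 98.7% of 18S in the NKRF PAR library, above 64.9% in the tag-only PAR library, and above 12.9% and 30.8% in the tag-only and NKRF UV libraries. The remaining NKRF PAR peaks were at 827 (270 normalised hits), 1089 (266) and 1838 (266).

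Some edges of these blocks were among the 3 largest in all 4 libraries, and others in the UV libraries only. Coverage rose on entry to position 1 by 5587 normalised hits in the tag-only UV library, 9342 in the NKRF UV library, 1426 in the tag-only PAR library and 221 in the NKRF PAR library. This was the largest rise in 3 of the 4 libraries and the next largest in the tag-only UV library. The rise at 363 was among the 3 largest in all 4, at 4186, 2712, 597 and 80 normalised hits. The fall after 43 was the largest of both PAR libraries, at 722 with the tag alone and 75 with NKRF, and measured 1798 and 2427 in the tag-only and NKRF UV libraries. The block at 825 to 865 had edges among the 3 largest with UV only. In the tag-only and NKRF UV libraries coverage rose by 7665 and 8736 normalised hits at 825. After 865 it fell by 7337 and 9480. In the PAR libraries the rise at 825 was 54 normalised hits with the tag alone and 0 with NKRF. The fall after 865 was 27 and 17, where 1 read was worth 8.92 and 4.43 normalised hits.

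Among the other named edges, the fall after 1173 measured 1993 and 1441 normalised hits with UV, and that after 400 measured 1815 and 1330. The fall after 92 measured 1248 and 2252. The tag-only PAR library rose by 170 normalised hits at 1027, where the NKRF PAR library rose by 0. The NKRF PAR library rose by 93 at 1834, and the tag-only PAR library by 151. The fall after 37 was 214 and 45 in the tag-only and NKRF PAR libraries. Of the 10 largest rises in each library, the UV libraries shared 8 and the PAR libraries 4, and 2 were common to all 4. Of the 10 largest falls they shared 7 and 4, and again 2 were common to all. At least 643 and 968 reads lay behind the PAR profiles, against 66763 and 102704 with UV. The part of this depth in the sharing of edges was not tested.

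The profiles can be compared as a whole over 19 windows, 18 of 100 nt and the last of 69 nt. The Spearman correlation of mean coverage was 0.95 for the tag-only and NKRF UV libraries, 0.48 for the tag-only and NKRF PAR libraries, 0.61 for the tag-only libraries and 0.31 for the NKRF libraries. These are descriptions across neighbouring windows of 1 molecule. On this measure the NKRF UV profile was nearer to its tag-only control than to the NKRF PAR profile. The PAR profiles rest on far fewer reads, and the part of depth in the lower correlations was not tested.

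The approximate domains took different shares in the modes. With UV, the 5′ domain (1 to 670) held 34.6% of the 18S coverage with the tag alone and 35.8% with NKRF, and the central domain (671 to 1200) held 43.2% and 43.3%. The 3′ major domain (1201 to 1700) held 17.3% and 16.1%, and the 3′ minor domain (1701 to 1869) 4.86% and 4.77%. With PAR, the 5′ domain held 60.2% with the tag alone (56.3 to 64.0) and 31.4% with NKRF (28.5 to 34.4). The central domain held 17.6% with the tag alone (14.7 to 20.7) and 37.4% with NKRF (34.3 to 40.5), 2.13-fold more (1.72 to 2.65). The 3′ major and 3′ minor domains held 14.1% and 8.14% with the tag alone and 19.1% and 12% with NKRF. Without the first 100 nt, which held 32.9% of the tag-only PAR coverage, the 5′ domain still held 40.7% with the tag alone and 23.6% with NKRF, and the central domain 26.2% and 41.6%.

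Window calls, at a 2-fold ratio with a pseudocount of 1 normalised hit, followed the scale. As a share of the 47S coverage, 0 of the 19 windows of 18S were higher with NKRF with UV, where 60.6% of all 47S windows were, and 8 were lower, against 6.3% of all windows. These 8 were all the windows of the 47S called lower with UV. With PAR, 0 were higher, against 41.6% of all windows, and 18 were lower, against 32.8%. The exception was the window 701 to 800. In normalised hits, 2 windows of 18S were higher with UV, where 85.8% of all 47S windows were, and 0 were lower, against 0.0%. With PAR 3 were higher, against 83.2%, and 3 lower, against 2.4%.

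On the share of 47S coverage, the windows with the lowest ratios of NKRF to the tag alone differed between the modes, apart from 301 to 400. With UV they were 1001 to 1100 (2.56-fold lower, 2.49 to 2.63), 1401 to 1500 (2.44-fold, 2.36 to 2.53) and 301 to 400 (2.44-fold, 2.36 to 2.52). With PAR they were 1 to 100 (52.5-fold lower, 41.6 to 66.5), 301 to 400 (30-fold, 22.3 to 40.3) and 401 to 500 (28.3-fold, 14.7 to 55.3). The mean coverage of positions 1 to 100 was 6017 normalised hits in the tag-only UV library, 8171 in the NKRF UV library, 757 in the tag-only PAR library and 172 in the NKRF PAR library. The first window was among the best covered in each library, and in the PAR pair it was 4.41-fold lower with NKRF in normalised hits (3.50 to 5.58).

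**Figure D2:**
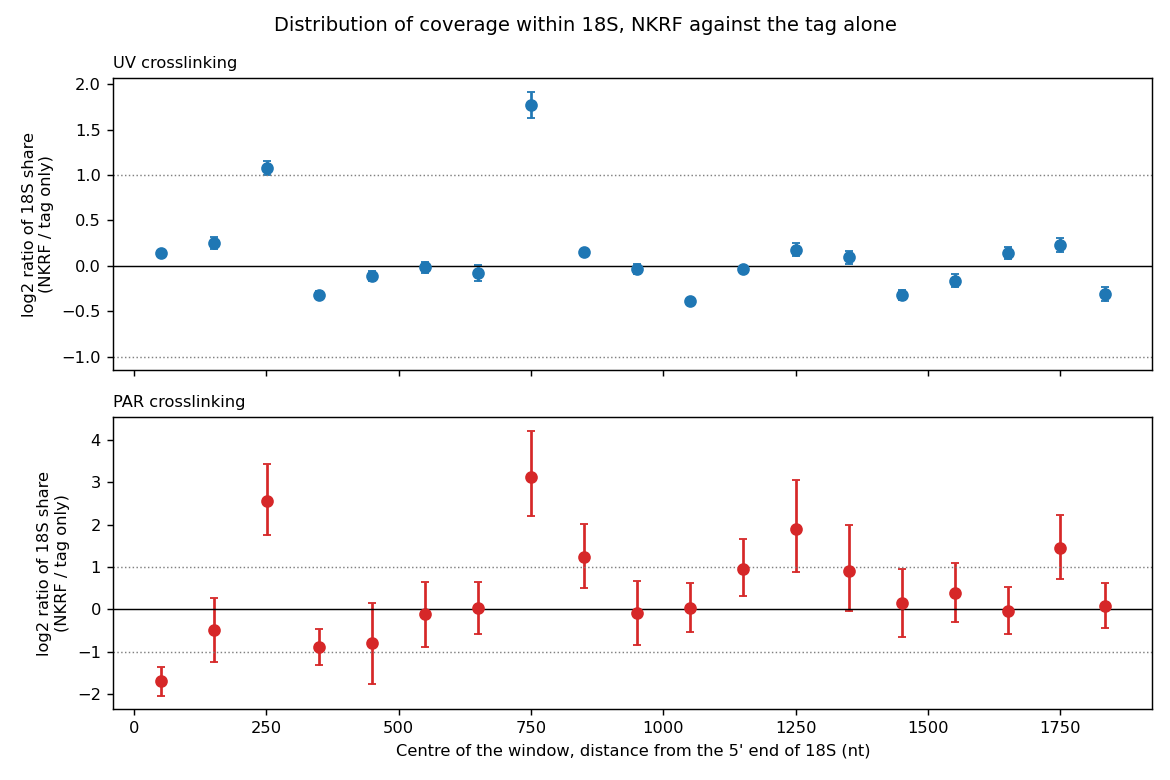
Log2 ratio of the share of 18S coverage, NKRF over the tag alone (y axis), for 19 windows placed by their centre in nucleotides from the 5′ end of 18S (x axis), with UV above and PAR below. Bars are 95% counting intervals and dotted lines mark a 2-fold ratio. The windows 201 to 300 and 701 to 800 lie above the upper line in both panels.

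Within 18S, 2 windows passed the 2-fold ratio towards NKRF in both modes, 201 to 300 and 701 to 800. They were the only windows of 18S called higher with UV on the share of 18S coverage, where 33.9% of all 47S windows were called higher on the share of their own segment. With PAR 5 were called higher, against 28.5%. The other 3 were 801 to 900, 1201 to 1300 and 1701 to 1800, with PAR ratios of 2.36 (1.43 to 4.04), 3.72 (1.83 to 8.34) and 2.72 (1.65 to 4.68). With UV their ratios were also above 1 but under 2-fold, at 1.11 (1.09 to 1.13), 1.13 (1.08 to 1.19) and 1.17 (1.11 to 1.24). No window of 18S was called lower with UV, against 15.7% of all windows, and 1 was with PAR, against 41.5%. That window was 1 to 100. Calls higher in both modes took 2 of 19 windows of 18S and 21.1% of all 47S windows. Across the 19 windows the median log2 ratio of 18S share was -0.02 with UV and 0.09 with PAR, against 0.09 and -0.15 over all 47S windows.

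The window 701 to 800 lies in the region known as expansion segment ES6S, a large eukaryotic addition to the central domain. Its mean coverage was 193 normalised hits in the tag-only UV library, 813 in the NKRF UV library, 30.1 in the tag-only PAR library and 192 in the NKRF PAR library. It was the least covered window of the tag-only UV library, and the best covered window of the NKRF PAR library. Its share of 18S coverage was 3.41-fold higher with NKRF with UV (3.09 to 3.78), and under PAR crosslinking 8.72-fold (4.59 to 18.6), with at least 10 reads behind the tag-only PAR value. In normalised hits the ratios were 4.20 (3.8 to 4.65) for UV and 6.38 (3.36 to 13.6) for PAR. As a share of the 47S coverage the UV ratio was 1.75 (1.58 to 1.94) and the PAR ratio 0.536 (0.282 to 1.15).

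The window 201 to 300 lies in the 5′ domain, in the region known as expansion segment ES3S. Its mean coverage was 535 normalised hits in the tag-only UV library, 1387 in the NKRF UV library, 20.8 in the tag-only PAR library and 89.3 in the NKRF PAR library. The share of 18S coverage was 2.10-fold higher with NKRF with UV (2.0 to 2.22), and under PAR crosslinking 5.88-fold higher (3.37 to 10.9). Relative to all 47S coverage the ratios were 1.08 with UV (1.02 to 1.14) and 0.361 with PAR (0.207 to 0.669). The next in rank on that scale, 101 to 200 with UV and 1201 to 1300 with PAR, had ratios of 0.608 (0.581 to 0.637) and 0.229 (0.113 to 0.512).

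Divided more finely into 75 pieces of 25 nt, 18S had 8 pieces called higher on its own share with UV, against 33.1% of all such pieces of the 47S, and 27 with PAR, against 35.7%. With UV 0 were called lower, against 16.0%, and with PAR 13, against 37.2%. The share of pieces called higher with PAR was close to that of the whole 47S. In both modes 7 pieces were called higher, against 22.8% of all pieces of the 47S. Of these 7, 4 reached the minimum of 20 normalised hits with PAR only through the NKRF library, so their direction with PAR was fixed by the filter. The 7 formed 3 stretches, chosen after their values were seen, whose sequences are shown above. They are given as a description.

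Over positions 226 to 275 mean coverage was 661 normalised hits for the tag alone with UV and 1962 for NKRF, 2.41-fold more of the 18S coverage (2.22 to 2.62). In the PAR libraries the means were 6.48 and 128, and 21 of the 50 positions had no tag-only coverage. The PAR ratio was 27 (7.08 to 229), with 2 reads behind the tag-only value. The NKRF maxima lay at 252 with UV and 259 with PAR. As a share of the 47S coverage the ratios were 1.23 with UV (1.14 to 1.34) and 1.66 with PAR (0.435 to 14.1).

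Positions 701 to 800 had their maxima at 753 with NKRF UV (1203 normalised hits) and at 762 with NKRF PAR (354), and the tag-only PAR library had no coverage at 41 of the 100. Positions 1751 to 1775, at the tip of the long helix 44 of the 3′ minor domain, averaged 212 normalised hits with the tag alone and 1127 with NKRF after UV crosslinking, 4.32-fold more of the 18S coverage with NKRF (3.84 to 4.87). With PAR the means were 23.7 and 55.3, a 3.19-fold higher share (1.27 to 9.04) with at least 7 and 18 reads behind them. With UV this stretch was also higher on the share of 47S coverage, 2.22-fold (1.97 to 2.50), while with PAR that ratio was 0.196 (0.0782 to 0.556).

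**Figure D3:**
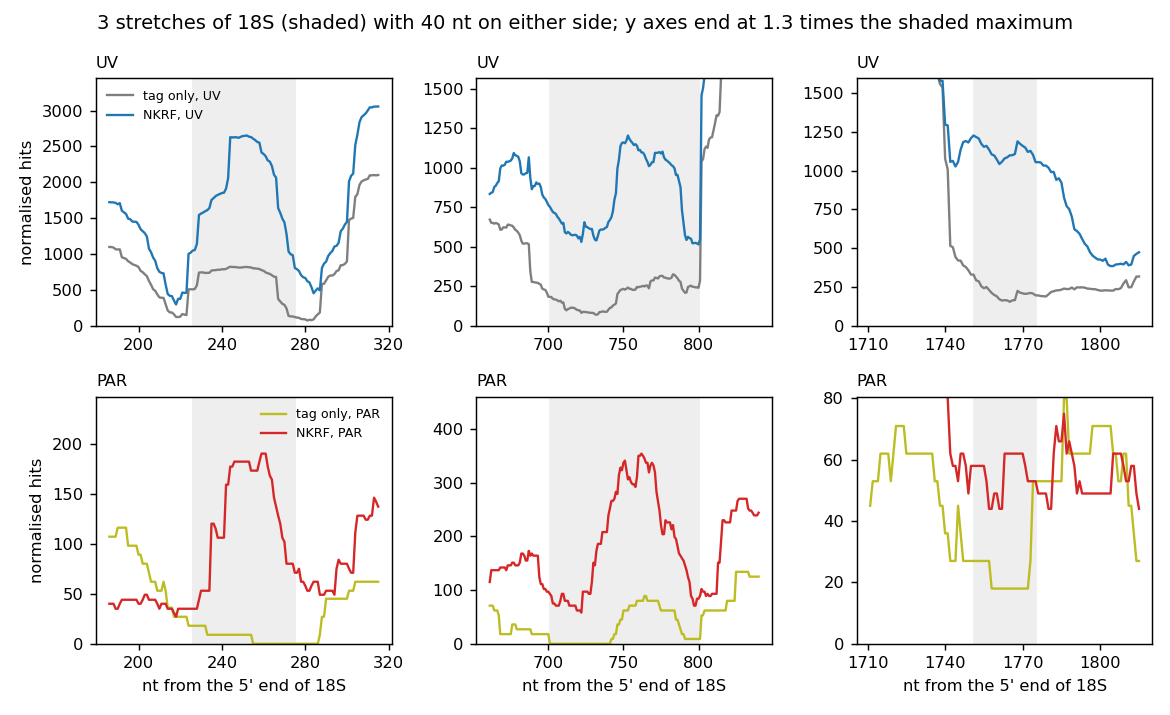
Coverage in normalised hits (y axis) against distance from the 5′ end of 18S (x axis) in 3 stretches (shaded) and 40 nt on either side, with the UV libraries above and the PAR libraries below; each y axis ends at 1.3 times the highest shaded value, so higher flanks are clipped. Mean NKRF coverage exceeded that of the tag alone in each shaded stretch, by 1962 to 661 normalised hits with UV in the first and 813 to 193 in the next.

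These stretches were richer in G and C than 18S as a whole, at 76%, 76% and 88% against 56.1%. The T content, which bounds where 4-thiouridine can enter, was 8%, 16% and 8% against 21.5%. Over all 19 windows of 18S, the Spearman correlation of GC content with the log2 ratio of 18S share was 0.24 with UV and 0.35 with PAR. In 28S it was 0.77 over 51 windows with UV and 0.76 over 48 with PAR. The windows of a segment are neighbours in 1 library pair, so these values are descriptions. The part of GC content in the ratios was not tested.

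The ends of 18S differed from each other in form. At the 5′ end coverage stepped up at position 1 exactly. The 20 nt before 18S averaged 11.5 normalised hits in the tag-only UV library and the first 20 nt of 18S 6720, a ratio of 587 (441 to 800). In the NKRF UV library the means were 44.6 and 10984, a ratio of 247 (213 to 287). In the tag-only PAR library they were 30.3 and 1600, a ratio of 52.8 (25.1 to 133), and in the NKRF PAR library 92.9 and 367, a ratio of 3.96 (2.64 to 6.06). The step was smallest in the NKRF PAR library, which had the highest coverage before 18S and the lowest within it. In normalised hits, the 20 nt of 5′ ETS were 3.89-fold higher with NKRF with UV (2.81 to 5.48), and under PAR crosslinking 3.06-fold higher (1.33 to 8.21). The first 20 nt within 18S were, with NKRF, 1.63-fold higher with UV (1.59 to 1.69), and under PAR crosslinking 4.36-fold lower (3.40 to 5.62).

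At the 3′ end no step lay at the border itself. The last nucleotide of 18S and the first of ITS1 had, in the tag-only UV library, 1259 and 1197 normalised hits, and 1316 and 1185 in the NKRF UV library. In the tag-only PAR library they had 152 and 143, and in the NKRF PAR library 204 and 190. Coverage beyond the border had its largest fall after nucleotide 7 of ITS1 in all 4 libraries, from 505 to 86 normalised hits in the tag-only UV library, from 610 to 239 in the NKRF UV library, from 45 to 9 in the tag-only PAR library and from 97 to 58 in the NKRF PAR library. The tag-only libraries had this overhang as well. A larger fall lay within 18S, after position 1865, in 3 of the 4 libraries, from 2020 to 1503 in the tag-only UV library, from 2086 to 1705 in the NKRF UV library and from 285 to 232 in the tag-only PAR library. In the NKRF PAR library coverage there went from 230 to 226.

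Past the overhang the UV libraries differed beyond counting error. At nucleotide 20 of ITS1, coverage was 1.35% of that at the last nucleotide of 18S with the tag alone (0.724 to 2.21) and 5.93% with NKRF (4.78 to 7.30). In the PAR pair it was 0% with the tag alone (0 to 19.5, 17 reads at the last nucleotide of 18S) and 10.8% with NKRF (3.62 to 23.6, 46 reads), a difference not detectable at this depth. The nucleotides at the end of the overhang were often misread. Nucleotide 7 of ITS1 carried a substitution in 12.3% of the tag-only UV coverage and 11.5% of the NKRF UV coverage, and nucleotide 8 in 15.1% and 15.9%, against 2.40% and 1.81% over the last 8 nt of 18S. Over the last 20 nt of 18S and the first 20 of ITS1, the ratio of inside to outside coverage was 7.19 (6.67 to 7.75) and 5.71 (5.35 to 6.11) with UV and 9.09 (5.00 to 17.3) and 3.35 (2.23 to 5.07) with PAR, the tag alone first in each pair.

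**Figure D4:**
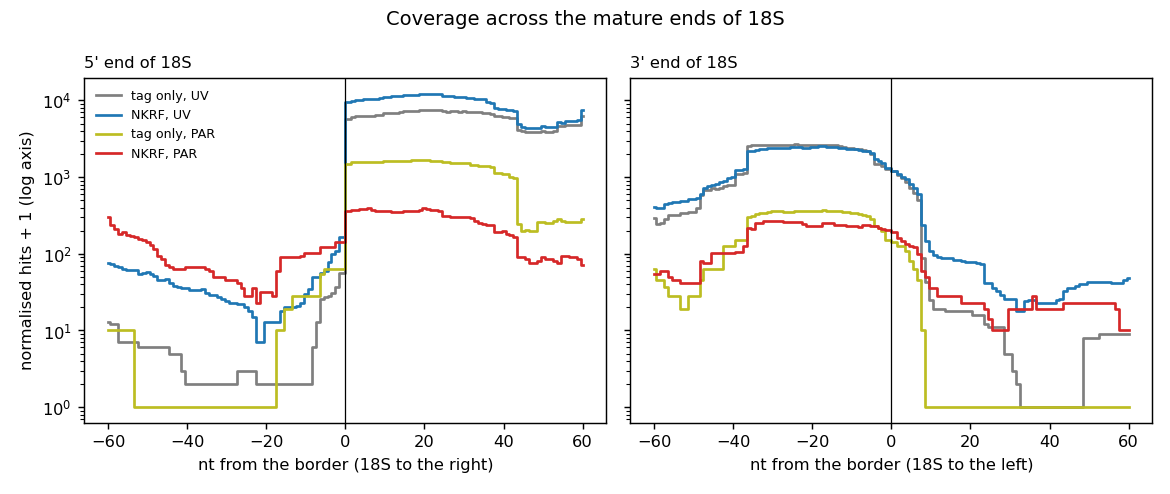
Coverage plus 1 in normalised hits (y axis, log scale) within 60 nt of the 5′ border (left) and the 3′ border (right) of 18S (x axis, nucleotides from the border) in the 4 libraries. The curves jump at the 5′ border in every library. Past the 3′ border they decline from the first nucleotides of ITS1, with the largest single fall there after nucleotide 7.

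Substitutions record a cDNA base that differs from the reference letter, and can arise at modified nucleotides, at crosslinks, from sequence differences or from errors. Which base was read is not in the files. Over 18S, 2.14% of the tag-only UV coverage and 1.63% of the NKRF UV coverage was substituted. The gap lay at A, with 5.08% of the coverage of A substituted with the tag alone and 2.52% with NKRF. At C, G and T the shares were 1.3%, 0.975% and 1.40% with the tag alone and 1.54%, 1.01% and 1.63% with NKRF. Position by position, the tag-only interval lay above the NKRF interval at 187 of 419 A and below it at 16, while at T it lay above at 9 of 401 and below at 30. Over all 18S positions the counts were 220 above and 101 below, 11.8% and 5.40% of 1869, against 5.66% and 1.78% of all 47S positions examined. Whether intervals lie apart depends on the number of reads. In the tag-only UV library 18S held 82.2% of the 47S coverage, so these percentages do not compare like depths. The part of depth in them was not tested. The largest single gaps lay at A too. Position 1001, an A, was substituted in 18% with the tag alone (16.2 to 19.9) and 0.990% with NKRF (0.693 to 1.39), and position 11, also an A, in 15.9% (15.0 to 16.9) and 2.05% (1.81 to 2.32).

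All 1869 positions of 18S had at least 10 reads in both UV libraries. Of these, 3 were substituted in at least 20% of the coverage in both, a share close to the 0.177% of all 47S positions examined. Position 594, an A, was substituted in 81.0% with the tag alone (77.2 to 84.7) and 67.8% with NKRF (64.1 to 71.2). Position 643, also an A, was substituted in 41.3% (37.4 to 45.2) and 31.8% (28 to 36), and position 1671, a G, in 26.1% (23.2 to 29.0) and 21% (19 to 23.1). In the NKRF PAR library the substituted share was 0% at all 3, but with 16, 11 and 24 reads, and substitutions were recorded at no A, C or G of 18S in that library. Positions adjacent to 594 were substituted in 0.219% and 0.530% with the tag alone and 0.843% and 1.04% with NKRF. Coverage stepped up just after 594, to 943 normalised hits at 595 from 517 with the tag alone and to 1159 from 636 with NKRF.

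With a share of at least 10% in both UV libraries there were 8 positions, a proportion near the 0.505% of all 47S positions. The additional 5 were 217, 1068, 1069, 1248 and 1585. Positions 1068, a G, and 1069, a T, were the ones of these 8 with higher shares with NKRF beyond the intervals, at 25.1% (23.2 to 27) against 12.6% (11.1 to 14.3) and 18.8% (17.4 to 20.4) against 11.3% (9.92 to 12.8). They lie where coverage fell, from 2852 normalised hits at 1067 to 1648 at 1070 with the tag alone and from 2933 to 1758 with NKRF. Position 217, an A, was substituted in 25.3% with the tag alone and 15.7% with NKRF, and position 1585, a T, in 21.5% and 16.0%.

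Position 1248 is the site of a hypermodified pseudouridine of 18S that is known to hinder reverse transcription. Its T was substituted in 15.3% of the tag-only UV coverage (9.75 to 22.5) and 22.0% of the NKRF UV coverage (16.7 to 28.7), with 137 and 202 reads, and in 12% of the NKRF PAR coverage (1.46 to 36.4) with 17 reads. It was deleted in 1.23% (0.177 to 5.17) and 8.06% (4.60 to 12.5) of the tag-only and NKRF UV coverage. Coverage stepped up just downstream, from 163 normalised hits at 1248 to 581 at 1250 with the tag alone and from 186 to 745 with NKRF. The PAR libraries were flat here, with 27 normalised hits at both positions with the tag alone and 75 at both with NKRF.

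Values for 3 other nucleotides known to be modified were looked up. The adjacent dimethylated adenosines near the 3′ end, 1850 and 1851, were substituted in 6.06% and 2.39% with the tag alone and 2.55% and 2.52% with NKRF, where all A of 18S together had 5.08% and 2.52%. With the tag alone 1850 lay above that value (5.12 to 7.15) and 1851 below it (1.79 to 3.11). The acetylated cytidine 1842 was substituted in 1.13% (0.727 to 1.65) and 0.743% (0.464 to 1.17).

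**Figure D5:**
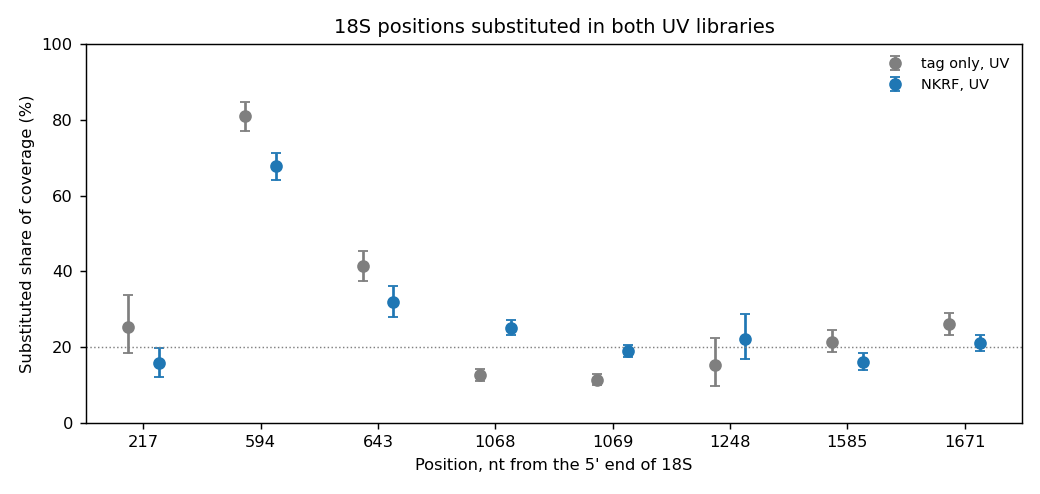
Share of coverage with a substitution in percent (y axis) at the 8 positions of 18S substituted in at least 10% of both UV libraries (x axis, nucleotides from the 5′ end), for the tag alone and NKRF with 95% counting intervals; the dotted line is at 20%. Position 594 stands highest, at 81.0% and 67.8%, and NKRF lies above the tag alone at 1068, 1069 and 1248, where the intervals overlap at 1248.

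Deletions mark bases skipped by reverse transcription, which UV crosslinks can cause. A deletion in at least 5% of the coverage was found at 3 of 1869 positions with the tag alone, against 0.833% of all 47S positions examined, and at 7 with NKRF, against 0.712%. Position 970, a G of the central domain, was deleted in 19.5% with the tag alone (17.8 to 21.2) and 6.54% with NKRF (5.71 to 7.46), and position 366, a T, in 10.5% (9.68 to 11.5) and 5.55% (4.90 to 6.25). Position 484, an A, was deleted in 5.66% (4.65 to 6.80) and 8.68% (7.59 to 9.84). These 3 passed in both libraries. Positions 8, 594, 896 and 1248 passed with NKRF alone, and of these the intervals overlapped at 896 (1.09%, 0.158 to 4.61, against 5.41%, 3.41 to 8.40) and at 1248. Position 8, a T, was deleted in 4.49% (3.96 to 5.09) and 5.93% (5.5 to 6.37), and position 594 in 0.774% (0.142 to 2.0) and 5.97% (4.29 to 7.96). Over the whole of 18S the deleted share was 0.162% with the tag alone and 0.156% with NKRF, and at T it was 0.308% and 0.310%. The count of positions differed between the libraries while the total share was nearly equal. The order of the counts depended on the threshold, since at a share of at least 10% they were 2 with the tag alone and 0 with NKRF.

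In PAR libraries a crosslinked 4-thiouridine tends to be misread. In the NKRF PAR library 13.3% of the 18S coverage at T was substituted. Of 267 T with at least 10 reads, 9 were substituted in at least 50%, against 8.29% of all such T of the 47S. The highest was 242, inside the stretch 226 to 275, at 86.2% (70.5 to 95.3) of 36 reads, where the UV shares were 0.253% with the tag alone and 0.575% with NKRF. Next were 1786 at 77.3% (50.1 to 93.2) of 17 reads, 344 at 64.2% (46.5 to 80.3) of 34, 1662 at 63.2% (43.9 to 80.1) of 30 and 1225 at 61.4% (26.2 to 87.8) of 10. The remaining 4 were 732 at 61.3% (44.6 to 76.6) of 39 reads, inside the stretch 701 to 800 and with 0 coverage in the tag-only PAR library, 296 at 58.3%, and 176 and 630 at 50%. The T just below the threshold were 1560 at 48.3%, 1242 at 47.6% and 1462 at 46.6%. By window, the substituted share at T was highest in 201 to 300, at 24.2%, and lowest in 1 to 100, at 9.67%. Substitutions of the tag-only PAR library were not analysed here, so none of these shares has a background value.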

How the data were processed

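The 4 libraries were mapped with Bowtie2 2.2.4, per the submitters' processing notes. For the reference, the read filters and the handling of multiple mappings and duplicates, the sources used here give nothing. The authors deposited coverage as a signal per nucleotide of the 47S pre-rRNA, with substituted and deleted hits, and a score per RNA class. From their values, both were scaled to 1000000 reads and rounded. In the tag-only PAR file the header is shifted, so coverage was read from the column headed as substitutions. The members, lists and stretches were chosen with earlier results of these data known.

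With Python 3.11.15, numpy 2.4.6, pandas 2.3.3 and scipy 1.17.1, the value of 1 read was fitted to how often each whole number up to 100 occurred. It implied 841751 and 1086957 reads for the UV libraries of the tag alone and NKRF, and 112158 and 225581 for their PAR libraries. Reads behind a region are the least number that can give its profile. Shares of single positions carry exact Clopper-Pearson intervals and ratios the exact binomial split of the reads. Windows of 100 nt, counted from the start of each segment, were examined where either mean reached 20 normalised hits. Folds printed for regions leave out the pseudocount. Domain borders are rounded. Named items were the 5 highest peaks (highest within 50 nt on either side, with the stretch at or above 50% of its height), the 3 largest rises and falls in each library, the 3 highest and lowest windows by share of 47S coverage, all positions past the substitution and deletion thresholds, and the 5 highest T. Sites at 1001, 11, 1842, 1850 and 1851 and the course past the 3′ end were added after the values were seen. The functions that fit the value of 1 read and give the log2 ratios of windows were tested on simulated profiles. There the ratios were first centred on the median of the windows left unchanged. The window calls reported here use no such centring, so the calls as made were not tested. The simulated tag-only PAR profile held far more reads than the at least 1001 behind the real 47S profile. Performance at that low depth was therefore not tested, and neither were the counting intervals.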

Additional observations from a re-analysis of the deposited data

Results flagged for a closer look

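The 18S coverage in normalised hits moved in opposite directions in the crosslinking modes, with a log2 ratio of NKRF over the tag alone of 0.30 with UV and -0.45 with PAR. With 1 library in each group the difference was not tested. The share of rRNA among all hits and the number of reads behind 18S differed between the modes as well, and their part in this was not tested.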

How the results depend on the processing

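No paired analysis was possible because each group holds 1 library. The log2 ratio of the 18S share with UV was -0.96; it turned to 0.30 in normalised hits and was -1.07 without the highest window of each library. With PAR it was -4.02, and -0.45 in normalised hits and -3.87 without 20 nt at each end. Windows called higher were 0 in both modes. In normalised hits they were 2 with UV and 3 with PAR, on the share of 18S 2 and 5, and with windows of 50 nt 1 with UV. Windows called lower went from 8 with UV and 18 with PAR to 0 and 3 in normalised hits, 0 and 1 on the share of 18S, and 16 and 35 with windows of 50 nt, which are more numerous. A pseudocount of 10 or no minimum coverage moved no count past 1.5 times. As a share of the 47S coverage the PAR log2 ratio turned to -0.90 for the stretch 701 to 800 and to -2.35 for 1751 to 1775, in an alternative chosen after seeing the data.

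With domain borders 30 nt towards the 3′ end, the NKRF UV 5′ domain held 36.3%, the central domain 44.0% and 44.1% in the tag-only and NKRF UV libraries, the tag-only UV 3′ major domain 17.7%, and the 3′ minor domain 3.33%, 3.55% and 9.25% in the tag-only UV, NKRF UV and NKRF PAR libraries. With borders 30 nt towards the 5′ end, the tag-only and NKRF UV values were 34.1% and 35.3%, 42.2% and 41.6%, 17.9% and 17.2%, and 5.77% and 5.80% from the 5′ to the 3′ minor domain.

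Over 50 nt on either side the 5′ step was 1076 in the tag-only UV library, and the 3′ steps were 15.3, 10.8, 18.8 and 5.14 for the tag alone and NKRF with UV and then with PAR. Over 5 nt the 5′ steps were 174, 97.9 and 24.8 in the first 3 of these, and the 3′ steps were 1.59, 1.64, 1.86 and 1.44. Substituted positions in both UV libraries numbered 8 at a share of at least 10% and 1 at 50%. At a deletion share of at least 10%, 2 positions remained with the tag alone and 0 with NKRF, against 3 and 7 at 5%. With at least 50 reads, 0 T positions of the NKRF PAR library passed, since the depth there leaves few. Of the alternatives fixed at the start, 34 values stayed within their interval or within 1.5 times the count. Another 30 moved further, 8 counts became larger, 7 became smaller and 1 ratio reversed. The cause of these changes was not tested.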
